A study of Mus musculus with 80 samples.

Results

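Hindlimb unloading for 72 h was compared with no unloading in the gastrocnemius, a mixed calf muscle, of male mice. The comparison used 16 of the series' 80 RNA libraries, namely the 9 male libraries whose labels give a time of 72 h and the 7 whose labels give 0 h, and all 12853 genes of the 41-library male table. Mice in this model are held with the hind feet in the air, and the calf, bearing no weight, wastes. The study followed male and female C57BL6/J mice over 24, 48, 72 and 168 h of unloading, with 8 animals per group by its design text, and weighed the muscles. The 0 h mice are labelled as controls, the 72 h mice as unloaded, and both groups are labelled only with the strain C57BL6/J, with no transgene, deletion or drug. The labels do not say which library came from which animal, so a p value measures only the spread between libraries.

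A muscle that loses its load makes less protein and breaks more of it down. Ubiquitin ligases tag proteins for the proteasome, a barrel-shaped protease with a regulatory cap, while autophagy carries organelles and aggregates to the lysosome. Heat shock proteins fold new and damaged proteins and are known to fall in unloaded muscle, and slow, oxidative fibres, which burn fat, carry most of the postural load that is removed.

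The libraries differ in number series and in estimated depth, and both largely follow the groups. The S numbers in the titles run from S25 to S41 for all 7 control libraries but for only 2 of the 72 h libraries (replicates 1 and 2), and from S1 to S16 for the other 7, so that most of the unloaded libraries lie in a number series without a control. What the numbers stand for is not stated, and each of the 7, numbered S2 to S8, repeats a number of a 24 h or 48 h library. The 2 and the 7 differed in 1 gene (0.00778% of all) by limma, the transcription factor Cebpd, with 636 genes (4.95% of all) at an unadjusted p under 0.05. Counts and calls are therefore also given with the 2 alone and with the 7 alone, each against the same 7 controls. The files give no read counts, but steps in the low values gave an estimate of the depth. It was 18.1 to 35.4 M reads per library at 0 h (median 30.8 M) and 33.7 to 43.0 M at 72 h (median 40.4 M). The part of depth in the changes was not tested. Replicate 4 at 72 h stood apart, with a median Spearman correlation of 0.967 to its group where the other 8 reached at least 0.984, and 1396 genes were called higher or lower at 72 h than at 0 h without it. All 10 myofibre markers were measured and none was near 0. They summed to between 3761481 and 5365457 signal units at 0 h and between 3367784 and 5172742 at 72 h, where whole libraries held 33.1 to 36.75 M.

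At 72 h 721 genes (5.61% of all) were higher and 671 (5.22%) were lower, 1392 (10.8%) in all, at an adjusted p under 0.05. Changes were mostly small, with a median size of 0.37 on the log2 scale among called genes, and only 17 higher and 50 lower genes moved by at least 1. In 115 genes (0.895%) every 72 h library was above every control, and in 109 (0.848%) every one was below. With the 2 libraries alone 516 genes (4.01%) were called, 254 higher (1.98%) and 262 lower (2.04%), and with the 7 alone 816 (6.35%), 438 (3.41%) and 378 (2.94%). All 1392 genes kept the sign of their change in both subsets. The 2 and the 7 are parts of the 9 that picked these genes and share the controls, so this is no independent check. Among all genes 166 higher (1.29%) and 146 lower (1.14%) were called with all 9, with the 2 and with the 7. A term for the number series left 552 (4.29%), 265 higher (2.06%) and 287 lower (2.23%). That term gave each gene the same change as the 2 alone, with another estimate of spread, so it is not a separate check. Array weights gave 2103 (16.4%), 1086 higher (8.45%) and 1017 lower (7.91%). The authors' deposited table calls 1611 genes at an adjusted p under 0.05 for the same comparison, 809 higher (6.29%) and 802 lower (6.24%), and 1373 of them are among the 1392, all in the same direction. Values are the deposited signal, reads divided by a size factor per library, and changes are log2 changes of the signal plus 1 with limma's standard error and adjusted p.

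Several of the genes described are placed as follows in the deposited table, whose build is not named with certainty. Psmd8 (ENSMUSG00000030591) lies on chromosome 7 from 28873613 to 28880127, and Hsph1 (ENSMUSG00000029657) on chromosome 5 from 149537752 to 149559842. Cirbp (ENSMUSG00000045193) lies on chromosome 10 from 80001819 to 80008621. Fabp3 (ENSMUSG00000028773) lies on chromosome 4 from 130202388 to 130209257, and Mss51 (ENSMUSG00000021815) on chromosome 14 from 20532935 to 20546970. All 5 are protein coding in that table.

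Many proteasome genes rose. Of 39 measured subunits and assembly factors 20 were higher and none lower (1 lower at an unadjusted p under 0.05, 0 in the authors' deposited table), against 5.61% of all genes higher. The median change of the list was 0.29, where that of all genes was -0.0044. With the 2 libraries alone 9 were higher (1.98% of all genes), with the 7 alone 16 (3.41%) and with the series term 10 (2.06%). Psmd8, a subunit of the cap, had a signal between 3898 and 5030.4 (median 4191) at 0 h and between 6015 and 9672 (median 7513) at 72 h. The groups did not overlap, and the gene rose by 0.77 ± 0.11 (adjusted p = 1.7e-05) on the log2 scale. Psmd2, a large scaffold subunit of the cap, lay between 6573 and 7845 (median 7514) before and between 9583 and 12729 (median 10414) after unloading, again without overlap, and rose by 0.52 ± 0.082 (adjusted p = 4.1e-05). Its highest value came from replicate 1 at 72 h, 1 of the 2 libraries that share the controls' number series. Psmc5, an ATPase that threads proteins into the barrel, rose by 0.37 ± 0.063 (adjusted p = 0.00013), and Psmd4, a ubiquitin receptor, by 0.60 ± 0.11 (adjusted p = 0.00019). The called subunits covered the catalytic barrel (Psma4, Psma6, Psma7, Psmb1, Psmb2, Psmb4, Psmb5, Psmb7), the ATPase ring (Psmc1, Psmc3, Psmc4, Psmc5) and the cap. Psme1, a subunit of a proteasome activator, was counted among the interferon-induced genes instead and was called lower. The authors' deposited table also calls it lower (adjusted p = 0.013). With the 2 alone its change was -0.37 (limma adjusted p = 0.315).

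**Figure D1:**
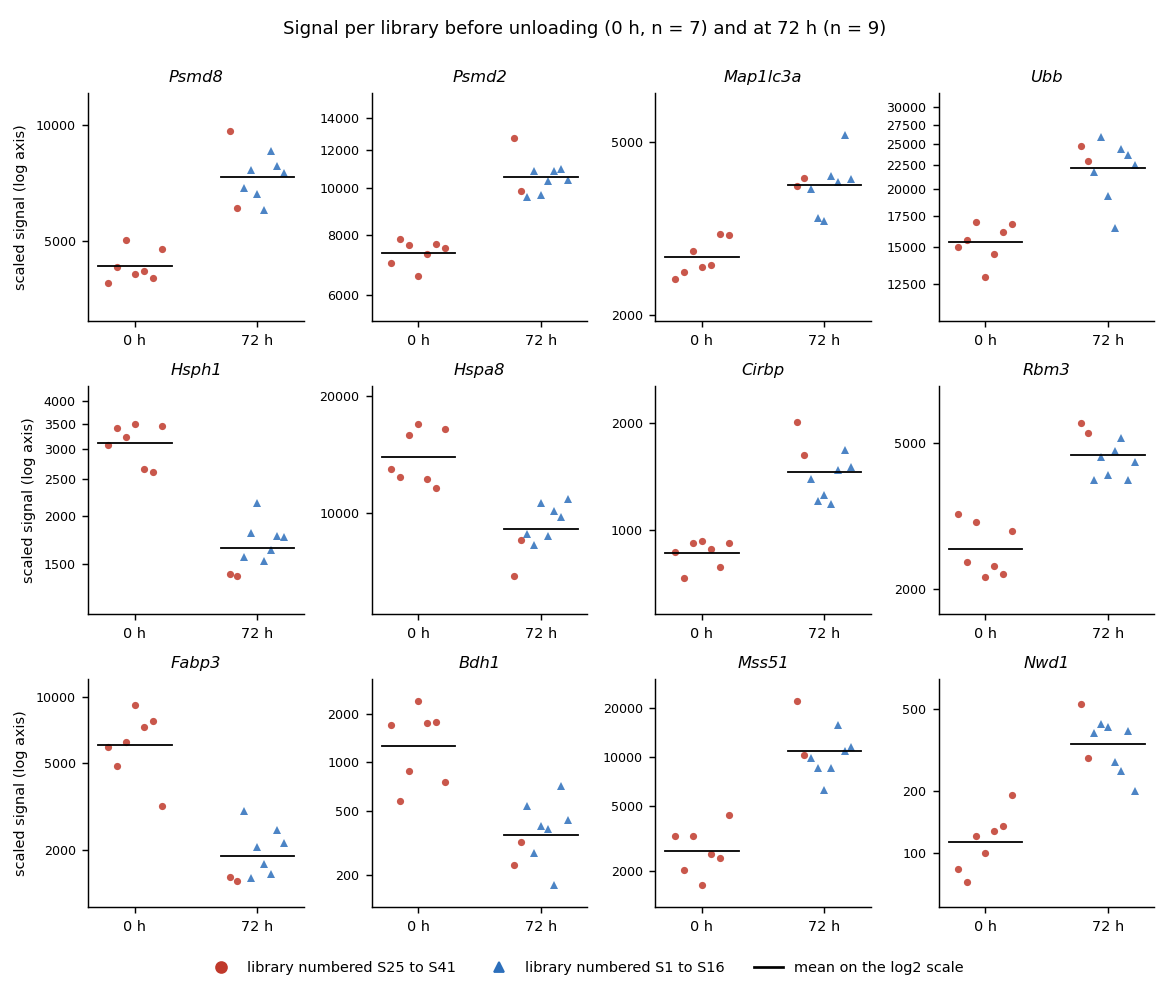
Deposited signal of 12 genes in each of the 7 control and 9 unloaded libraries, on log axes; red circles are libraries numbered S25 to S41, blue triangles those numbered S1 to S16, and bars are means on the log2 scale. For Psmd8, Psmd2, Map1lc3a, Hsph1, Hspa8, Cirbp, Rbm3, Fabp3, Mss51 and Nwd1 the 2 groups do not overlap, whichever number series a 72 h library belongs to.

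Genes that feed the proteasome and the autophagosome moved less evenly. Of 26 genes of the ubiquitin machinery 5 were higher (Ubb, Ube2j1, Ube2v1, Ufd1 and Nploc4), against 5.61% of all genes. None was lower (2 at an unadjusted p under 0.05, 1 in the authors' deposited table). The 2 alone gave 1 higher and the 7 alone 3. The list held 3 when replicate 1, 2, 4, 5 or 6 at 0 h or replicate 2 or 7 at 72 h was left out. Ubb, a polyubiquitin gene, had between 12932 and 17000.0 (median 15555) at 0 h and between 16467 and 25889 (median 23015) at 72 h, with replicate 6 of the unloaded group alone inside the control range, and rose by 0.53 ± 0.097 (adjusted p = 0.00029). Its pseudogene in the table, Ubb-ps, rose by 0.59 ± 0.093 (adjusted p = 4.3e-05), and how reads were split between near-identical copies is not stated. Nploc4, part of the complex that unfolds tagged proteins, rose by 0.55 ± 0.13 (adjusted p = 0.0033), but with the 2 alone its adjusted p was 0.12.

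Of 28 autophagy genes 11 were higher, against 5.61% of all genes, and none lower, also at an unadjusted p, with a median of 0.17. The count is fragile: it was 1 with the 2 libraries alone, 3 with the 7 alone and 1 with the series term, and it fell to between 4 and 7 when replicate 2, 4, 5 or 6 at 0 h or replicate 1, 2 or 7 at 72 h was left out. Map1lc3a, a membrane protein of the autophagosome, held in both subsets. Its signal lay between 2419.5 and 3072 (median 2611) in controls and between 3291 and 5193 (median 4037) after unloading, with no overlap, and it rose by 0.55 ± 0.096 (adjusted p = 0.00015). Map1lc3b, its paralogue, rose by 0.43 ± 0.11 (adjusted p = 0.0080) and also left no overlap, but its adjusted p was 0.38 with the 2 alone. Of 26 lysosomal genes 4 were higher, where 5.61% of all genes were, and 1, Gusb, lower, with 2 and 1 in the 7 alone. With the 2 alone and with the series term limma called none, where 2 and 3 higher and 2 and 2 lower passed an unadjusted p under 0.05. Gusb was lost without replicate 2, 4 or 6 at 0 h or 3, 4 or 7 at 72 h. Mcoln1, the calcium channel of the lysosome, rose by 0.27 ± 0.061 (adjusted p = 0.0028) with an adjusted p of 0.066 in the 2 alone, and the higher count fell to 2, 1 and 2 without 0 h replicate 2, 0 h replicate 4 and 72 h replicate 1.

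The muscle ubiquitin ligases themselves were called about as often as genes at large. Of 25 ligases and FoxO-linked genes 1 was higher and 2 lower, near the 5.61% and 5.22% of all genes. The 2 alone gave 1 lower and the 7 alone 2. Fbxo32, atrogin-1, lay between 5431 and 10159 (median 7536) at 0 h and between 5204 and 17514 (median 13049) at 72 h, and the unloaded libraries spanned the whole control range, 7 above and 2 below the control mean. Its change was 0.56 ± 0.32 (adjusted p = 0.28). Trim63, MuRF1, changed by 0.28 ± 0.28 (adjusted p = 0.60), with between 5784 and 7238 (median 6610.4) before and between 4717 and 10055 (median 8591) after. Kbtbd13, an adaptor of a cullin ligase in muscle, fell by 0.75 ± 0.19 (adjusted p = 0.0072), and Trim55, a relative of Trim63, by 0.29 ± 0.076 (adjusted p = 0.011), with an adjusted p of 0.065 in the 2 alone. Fbxo31 was called higher at 0.33 ± 0.10 (adjusted p = 0.035), a call lost with either subset (adjusted p = 0.33 and 0.075) and without replicates 1, 2 or 4 at 0 h or 1, 4 or 8 at 72 h. Foxo1 and Foxo3, which drive ligase genes, had changes of 0.011 ± 0.21 (adjusted p = 0.98) and 0.11 ± 0.13 (adjusted p = 0.67), and myostatin (Mstn), a brake on muscle growth, one of -0.040 ± 0.14 (adjusted p = 0.91).

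Many chaperones fell. Of 33 measured heat shock proteins and co-chaperones 19 were lower and 1 higher, against 5.22% of all genes lower, with a median change of -0.34. Lower members numbered 7 with the 2 libraries alone (2.04% of all genes), 14 with the 7 alone (2.94%), 9 with the series term (2.23%) and 15 to 19 when any 1 library was left out. Hsph1, a large chaperone that recycles other heat shock proteins, had between 2614 and 3492 (median 3229.8) at 0 h and between 1391 and 2161 (median 1628) at 72 h. The groups did not overlap, and the gene fell by 0.91 ± 0.12 (adjusted p = 3.8e-06). Hspa8, the constitutive chaperone of the same machine, lay between 11541 and 16866 (median 12935) before and between 6871 and 10864 (median 8817) after, also without overlap, and fell by 0.61 ± 0.098 (adjusted p = 5.3e-05). Stip1, which passes clients from one chaperone to the next, fell by 0.43 ± 0.065 (adjusted p = 2.8e-05). Cryab, a small heat shock protein that protects desmin and actin, had between 12104 and 28324 (median 18876) at 0 h and between 6789.7 and 12571 (median 8826) at 72 h, where the highest unloaded library just reached the lowest control, and fell by 1.07 ± 0.21 (adjusted p = 0.00085). Dnajb6, a co-chaperone of the Z-disc, was the 1 member called higher, at 0.28 ± 0.069 (adjusted p = 0.0061), and with the 2 alone its adjusted p was 0.097. Hspa1a and Hspa1b, near-identical inducible copies whose reads may be split, were lower in the estimate but not called, at -1.05 ± 0.40 (adjusted p = 0.088) and -0.71 ± 0.35 (adjusted p = 0.21).

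Promoter windows show where the letters of the heat shock element lie in these genes. The element was searched as the letters GAANNTTC followed, after any 2 bases, by GAA, on both strands, from 250 bases before to 50 after each annotated start in RefSeq's table on GRCm38.p6, a build other than that of the signal table. It was present in 5 of the 25 heat shock members with a window (20.0%), against 0.662% of 27025 genes and 0.613% of the 9141 measured ones. The 5 were Hsph1, Hspd1, Hspe1 and Chordc1, which were lower at 72 h, and Dnajb6, which was higher. Hspe1, the partner of Hspd1, had the weakest call, -0.35 ± 0.12 (adjusted p = 0.048), lost without any 1 of replicates 1, 3, 4, 6 and 7 at 0 h and 1, 2, 3, 4, 5 and 9 at 72 h. Hspd1 and Hspe1 lie head to head, so that their windows overlap and hold the same 2 matches. The shorter GAANNTTC, which the element contains, was in 15 of the 25, in 9.04% of all genes and in 6.76% of measured ones. Of these 25 members 15 were called, 5 of them with the full element, and 10 were not called, none with it. Hspd1, a mitochondrial chaperonin, fell by 0.34 ± 0.073 (adjusted p = 0.0015) and Chordc1, a co-chaperone, by 0.40 ± 0.10 (adjusted p = 0.0088), with adjusted p values of 0.058 and 0.097 in the 2 alone. The windows of 3 lower genes and the higher one are shown, in the direction of transcription with the start at base 251 and matches in capitals. They lie at chr5:149636266-149636565 (minus strand, 1 of 2 annotated starts of Hsph1), chr1:55087883-55088182 (minus strand, Hspd1), chr9:18292017-18292316 (plus strand, Chordc1) and chr5:29735648-29735947 (plus strand, 1 of 2 starts of Dnajb6).
Hsph1: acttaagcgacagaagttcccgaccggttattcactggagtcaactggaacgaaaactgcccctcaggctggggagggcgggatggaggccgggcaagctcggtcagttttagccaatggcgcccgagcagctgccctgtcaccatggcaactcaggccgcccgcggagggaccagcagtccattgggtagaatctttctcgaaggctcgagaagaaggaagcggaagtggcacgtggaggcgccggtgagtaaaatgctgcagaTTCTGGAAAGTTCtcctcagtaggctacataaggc
Hspd1: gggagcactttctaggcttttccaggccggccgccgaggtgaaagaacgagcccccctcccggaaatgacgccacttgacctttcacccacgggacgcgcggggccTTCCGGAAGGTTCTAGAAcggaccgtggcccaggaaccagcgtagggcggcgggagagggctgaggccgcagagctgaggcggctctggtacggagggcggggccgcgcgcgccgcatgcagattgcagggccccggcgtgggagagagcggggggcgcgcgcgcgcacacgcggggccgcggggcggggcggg
Chordc1: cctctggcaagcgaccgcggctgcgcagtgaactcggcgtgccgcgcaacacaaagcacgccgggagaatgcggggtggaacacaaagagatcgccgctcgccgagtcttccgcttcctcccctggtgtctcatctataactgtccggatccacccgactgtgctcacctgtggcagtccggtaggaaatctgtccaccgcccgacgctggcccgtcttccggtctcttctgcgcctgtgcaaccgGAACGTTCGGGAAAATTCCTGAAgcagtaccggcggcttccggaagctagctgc
Dnajb6: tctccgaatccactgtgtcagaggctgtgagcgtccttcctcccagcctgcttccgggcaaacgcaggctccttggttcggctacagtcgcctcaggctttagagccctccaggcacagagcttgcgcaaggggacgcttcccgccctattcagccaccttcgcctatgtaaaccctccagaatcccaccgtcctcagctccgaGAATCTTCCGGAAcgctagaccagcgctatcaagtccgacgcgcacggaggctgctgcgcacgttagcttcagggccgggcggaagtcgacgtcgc
The capitals of Hspd1 join 2 overlapping matches and those of Chordc1 join 3. Hsph1 and Dnajb6 thus each hold 1 match while moving in opposite directions. A match is a string of letters, and no binding was measured. For the proteasome the antioxidant response element TGACNNNGC was in 6 of 32 members with a window (18.8%), near the 17.1% of measured genes.

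Cirbp and Rbm3, RNA-binding proteins known to be induced by cold, rose while the chaperones fell. Cirbp had between 735 and 930.2 (median 884) at 0 h and between 1186 and 2007 (median 1470.4) at 72 h. No library overlapped, and it rose by 0.76 ± 0.083 (adjusted p = 1.8e-07), the smallest p of all genes. Rbm3 lay between 2158 and 3219 (median 2381) before and between 3974 and 5690.0 (median 4605) after, again apart, and rose by 0.85 ± 0.11 (adjusted p = 3.8e-06). Both were called in the 2 alone (adjusted p = 4.4e-07 and 0.0010) and in the 7 alone.

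**Figure D2:**
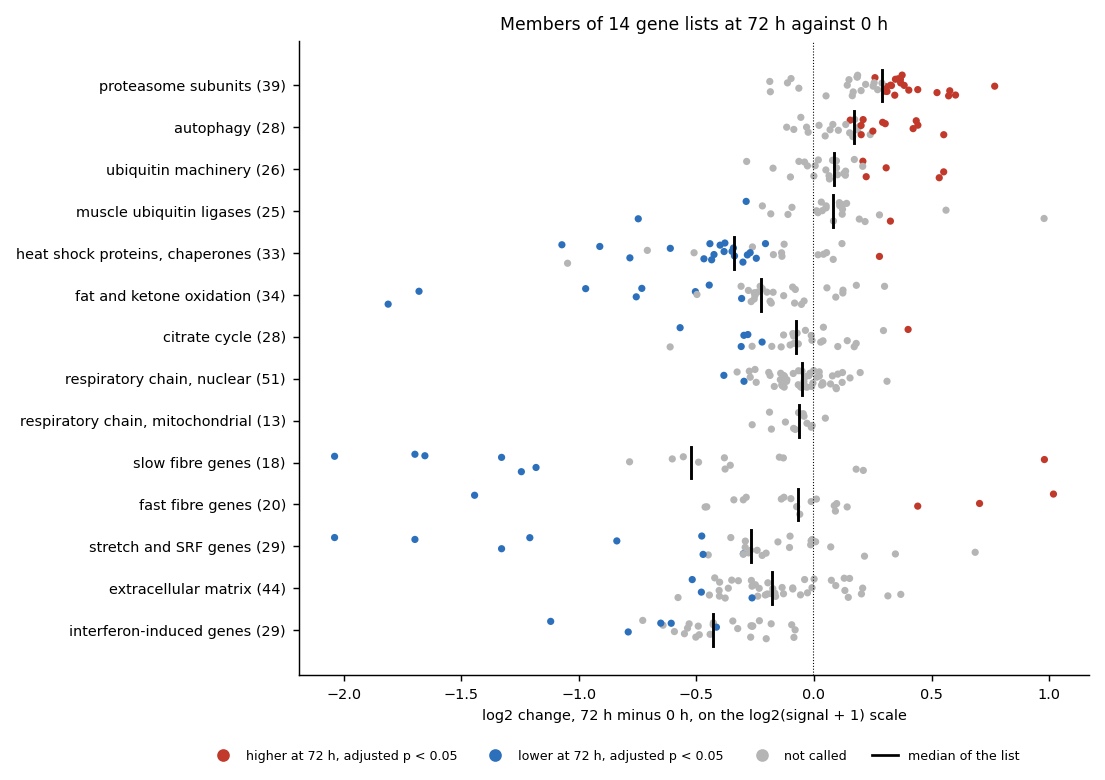
Each point is a measured member of 1 of 14 lists (number of members in brackets), placed by its log2 change at 72 h against 0 h; red and blue points passed an adjusted p of 0.05, black bars are list medians and the dotted line is the median of all genes. Called proteasome members lie only to the right and called interferon-induced and fat oxidation members only to the left, while 19 of 20 called heat shock members lie to the left.

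Some genes of fat and ketone use fell. Of 34 measured, 8 were lower, against 5.22% of all genes, and none higher, also at an unadjusted p, with a median of -0.22. There were 5 lower in the 2 alone, 7 in the 7 alone, 5 with the series term and 7 to 10 when a library was left out. Fabp3, the fatty acid carrier of muscle and heart, had between 3167 and 9114 (median 6223) at 0 h and between 1450.0 and 3033 (median 1741) at 72 h, with no overlap, and fell by 1.68 ± 0.24 (adjusted p = 1.2e-05), to 0.312 of its control level. The table also lists the copy Fabp3-ps1, which fell by 1.89 ± 0.31 (adjusted p = 8.7e-05), so the split of reads between them is uncertain. Bdh1, which oxidises ketone bodies, lay between 578 and 2397 (median 1697) before and between 174 and 717 (median 388) after and fell by 1.81 ± 0.34 (adjusted p = 0.00053). Its lowest control lay inside the unloaded range. Oxct1, the next enzyme of ketone use, fell by 0.76 ± 0.14 (adjusted p = 0.00044). Acsl1, which activates fatty acids, fell by 0.45 ± 0.099 (adjusted p = 0.0025), and Ppara, the receptor that switches on fat oxidation, by 0.97 ± 0.20 (adjusted p = 0.0013). Slc16a6, a transporter that exports ketone bodies from the liver in zebrafish, fell by 1.03 ± 0.16 (adjusted p = 3.0e-05), with a signal between 242 and 492 (median 389) at 0 h and between 129 and 247 (median 193) at 72 h. Fat cells lie between muscle fibres, and 9 of 10 adipocyte markers were measured (Ucp1 was not among the 12853 genes), none at 0 in a whole group. All 9 had a negative change and 1, Lep, was called lower, at -1.71 ± 0.55 (adjusted p = 0.038), a call lost without any 1 of replicates 1, 2, 3, 5, 6 and 7 at 0 h and 6, 7 and 8 at 72 h. Their signal summed to between 71398 and 146307 at 0 h and between 51637 and 114734 at 72 h, and their part in the lower fat genes was not tested.

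The citrate cycle followed in part and the respiratory chain hardly at all. Of 28 citrate cycle and pyruvate genes 5 were lower and 1, Pcx, higher, against 5.22% and 5.61% of all genes. The 2 alone gave 2 lower and the 7 alone 4. Mdh1, the cytosolic malate dehydrogenase, fell by 0.57 ± 0.12 (adjusted p = 0.0011) and Dlst, a subunit of oxoglutarate dehydrogenase, by 0.31 ± 0.071 (adjusted p = 0.0033). Of 51 nuclear subunits of the respiratory chain and its carriers 2 were lower, where 5.22% of all genes were, and of 13 mitochondrially encoded genes none was called by limma, none at an unadjusted p under 0.05 and none in the authors' deposited table. Sdhd, 1 of the 2, lost its call without any 1 of replicates 1 to 6 at 0 h and 1, 2, 3, 4, 7, 8 and 9 at 72 h, with adjusted p values of 0.05 to 0.097. Cycs, cytochrome c, fell by 0.38 ± 0.097 (adjusted p = 0.0073), with between 4387 and 6575 (median 5274) at 0 h and between 2958 and 4639 (median 4143) at 72 h. Mitochondrial transcripts held 11.3 to 17.95% of the signal at 0 h and 13.25 to 17.3% at 72 h. Among mitochondrial regulators Polrmt, the RNA polymerase of mitochondria, rose by 0.44 ± 0.090 (adjusted p = 0.0011). Ppargc1a, which drives mitochondrial biogenesis, was called lower at -0.32 ± 0.10 (adjusted p = 0.036). That call was lost with either subset (adjusted p = 0.25 and 0.083) and without any 1 of replicates 1 to 5 at 0 h and 1, 7, 8 and 9 at 72 h. Mfn1, which fuses mitochondria, fell by 0.27 ± 0.067 (adjusted p = 0.0055), with an adjusted p of 0.080 in the 2 alone.

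Myosin genes shifted within the fast class. Myh1, the heavy chain of fast type IIx fibres, had between 45230.0 and 138925 (median 94878) at 0 h and between 133018 and 293855 (median 164679) at 72 h, and rose by 1.02 ± 0.25 (adjusted p = 0.0063). Myh2, that of the more oxidative type IIa fibres, lay between 29252 and 109456 (median 77474) before and between 11284 and 36273 (median 22501) after and fell by 1.44 ± 0.35 (adjusted p = 0.0060). Both sets of ranges overlapped, and with the 2 alone the adjusted p was 0.27 for Myh1 and 0.12 for Myh2. Myh4, the heavy chain of the fastest fibres and the most abundant of the 4, changed by -0.29 ± 0.12 (adjusted p = 0.14), a sign that turned under quantile normalization, and Myh7, the slow heavy chain, by -0.38 ± 0.38 (adjusted p = 0.59). Of 20 fast fibre genes 3 were higher (Myh1, Actn3 and Mylk2) and 1, Myh2, lower, against 5.61% and 5.22% of all genes. The 2 alone gave 1 and 0 and the 7 alone 3 and 1. The lower count was 2 to 4 without replicate 4, 6 or 7 at 0 h or 2, 6, 7 or 9 at 72 h. Mylk2, the kinase that phosphorylates the fast light chain, held in both subsets, with between 25430.0 and 41015 (median 33334) at 0 h and between 47095 and 67406 (median 52829) at 72 h and no overlap, and rose by 0.70 ± 0.097 (adjusted p = 5.9e-06). Actn3, the Z-disc actinin of fast fibres, rose by 0.44 ± 0.11 (adjusted p = 0.0051), with an adjusted p of 0.067 in the 2 alone.

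Slow fibre genes spread widely. Of 18 measured, 6 were lower (Myl2, Tnni1, Casq2, Ankrd2, Csrp3 and Actc1) and 1, Sln, was higher, against 5.22% and 5.61% of all genes. Their median change was -0.52. The 2 alone gave 1 lower and the 7 alone 4. Casq2, the calcium store protein of slow fibres, was the 1 called in both, with between 1078 and 2305 (median 1668) at 0 h and between 490.1 and 1111 (median 672) at 72 h, and it fell by 1.18 ± 0.20 (adjusted p = 0.00014). Myl2, the slow regulatory light chain, lay between 3293 and 9737 (median 7258) before and between 1265 and 4651 (median 1706) after and fell by 1.65 ± 0.34 (adjusted p = 0.0011), with an adjusted p of 0.054 in the 2 alone. Sln, a small inhibitor of the calcium pump, was a low gene, between 22.4 and 38.2 (median 26.8) at 0 h and between 29.7 and 87.5 (median 66.3) at 72 h, and rose by 0.98 ± 0.26 (adjusted p = 0.011), with an adjusted p of 0.32 in the 2 alone. In whole muscle, fewer fibres of a type and less of an RNA per fibre cannot be told apart.

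Some stretch-sensing genes and targets of the actin-regulated factor SRF also fell. Of 29 measured, 8 were lower, against 5.22% of all genes, with a median of -0.27. None was higher (2 at an unadjusted p under 0.05, 0 in the authors' deposited table). There were 3 lower in the 2 alone, 4 in the 7 alone and 3 with the series term. The count was 5 without replicate 3, 4 or 5 at 0 h or replicate 1 at 72 h. Actc1, cardiac actin, had between 2821 and 71553 (median 7510.4) at 0 h and between 703 and 5041 (median 2113) at 72 h and fell by 2.04 ± 0.43 (adjusted p = 0.0017). Control replicate 2 alone stood at 71553, the other 6 controls between 2821 and 9047, and the call held without that library. With the 2 alone its adjusted p was 0.077 and with the series term 0.057. Csrp3, a stretch-linked Z-disc protein, fell by 1.70 ± 0.45 (adjusted p = 0.012), with ranges that overlapped and an adjusted p of 0.27 in the 2 alone. Xirp1, which binds actin at sites of remodelling, fell by 0.84 ± 0.21 (adjusted p = 0.0077), with an adjusted p of 0.14 in the 2 alone. Lincmd1, a long RNA of myoblast differentiation, fell by 2.29 ± 0.54 (adjusted p = 0.0045), the furthest of the named genes, with between 74.8 and 886 (median 231) at 0 h and between 13.5 and 214 (median 44.8) at 72 h. It was called with either subset, and its adjusted p was 0.058 with the series term.

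Some structural genes were called, more of them lower than higher, while calcium genes gave few calls. Of 30 genes of the sarcomere and the dystrophin complex 6 were lower and 3 higher, against 5.22% and 5.61% of all genes. The 2 alone gave 3 and 2, the 7 alone 5 and 1, and 1 was higher without 0 h replicate 2. Dag1, dystroglycan, fell by 0.31 ± 0.070 (adjusted p = 0.0033), with between 11294 and 12635 (median 12105) at 0 h and between 8263 and 10837 (median 9659.8) at 72 h, and Capn3, a muscle protease mutated in limb-girdle dystrophy, by 0.32 ± 0.075 (adjusted p = 0.0046), with an adjusted p of 0.054 in the 2 alone. In neither did the groups overlap. Of 24 calcium-handling genes 2 were higher and 3 lower, near the 5.61% and 5.22% of all genes, with 1 and 1 in the 2 alone and 1 and 2 in the 7 alone. Cacng1, the gamma subunit of the voltage sensor, rose by 0.60 ± 0.091 (adjusted p = 2.5e-05), with between 4792 and 9055 (median 6590.2) at 0 h and between 8948 and 11989 (median 10411) at 72 h. Rcan1, an inhibitor and target of calcineurin, fell by 0.59 ± 0.13 (adjusted p = 0.0031). Hrc, a calcium-binding protein of the reticulum, fell by 0.36 ± 0.092 (adjusted p = 0.0080), and had an adjusted p of 0.34 in the 2 alone.

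The highest and lowest changes among genes with a mean signal of at least 200 that were called with all 9 and with both subsets were not all of these pathways. Mss51, a muscle mitochondrial protein that restrains oxidative metabolism, had between 1646 and 4421 (median 2540.2) at 0 h and between 6274 and 21997 (median 10265) at 72 h. It rose by 2.02 ± 0.32 (adjusted p = 6.4e-05), to 4.06 times its control level, and no library overlapped. Nwd1, an ATPase with repeat domains of little known function in muscle, lay between 72.5 and 191 (median 121) before and between 201 and 525.9 (median 382) after and rose by 1.56 ± 0.21 (adjusted p = 3.8e-06). Ctxn3, a small membrane protein, rose by 1.08 ± 0.18 (adjusted p = 0.00013), again without overlap. Gadd45b, a stress-induced growth arrest gene, rose by 1.05 ± 0.23 (adjusted p = 0.0024), with its highest value, 1448, in replicate 1, which shares the controls' series. Smyd2, a methyltransferase that binds titin with a chaperone, rose by 0.77 ± 0.11 (adjusted p = 1.7e-05), and Ift27, a transport protein of cilia, by 0.93 ± 0.18 (adjusted p = 0.00066).

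Among the lowest were a histone, an iron receptor and several membrane proteins. H2bc6, a histone H2B gene, had between 358 and 619 (median 445) at 0 h and between 98.1 and 398 (median 116) at 72 h and fell by 1.76 ± 0.29 (adjusted p = 8.6e-05). Replicate 6 at 72 h, at 398, was the only unloaded library within the control range. Its span in the table overlaps that of H1f4, a linker histone that also fell, and reads of the 2 may not be told apart. Abhd18, a protein of the hydrolase fold family, fell by 1.23 ± 0.15 (adjusted p = 1.0e-06), with between 595 and 1052 (median 838) before and between 275 and 451 (median 318) after and no overlap. Tfrc, the transferrin receptor that takes up iron, fell by 1.08 ± 0.21 (adjusted p = 0.00072), with between 5957 and 11416 (median 7026) at 0 h and between 2581 and 6601 (median 3757) at 72 h. Zdhhc23, a palmitoyltransferase, fell by 1.24 ± 0.31 (adjusted p = 0.0064) and Efr3b, which anchors a lipid kinase at the membrane, by 1.11 ± 0.18 (adjusted p = 6.4e-05).

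**Figure D3:**
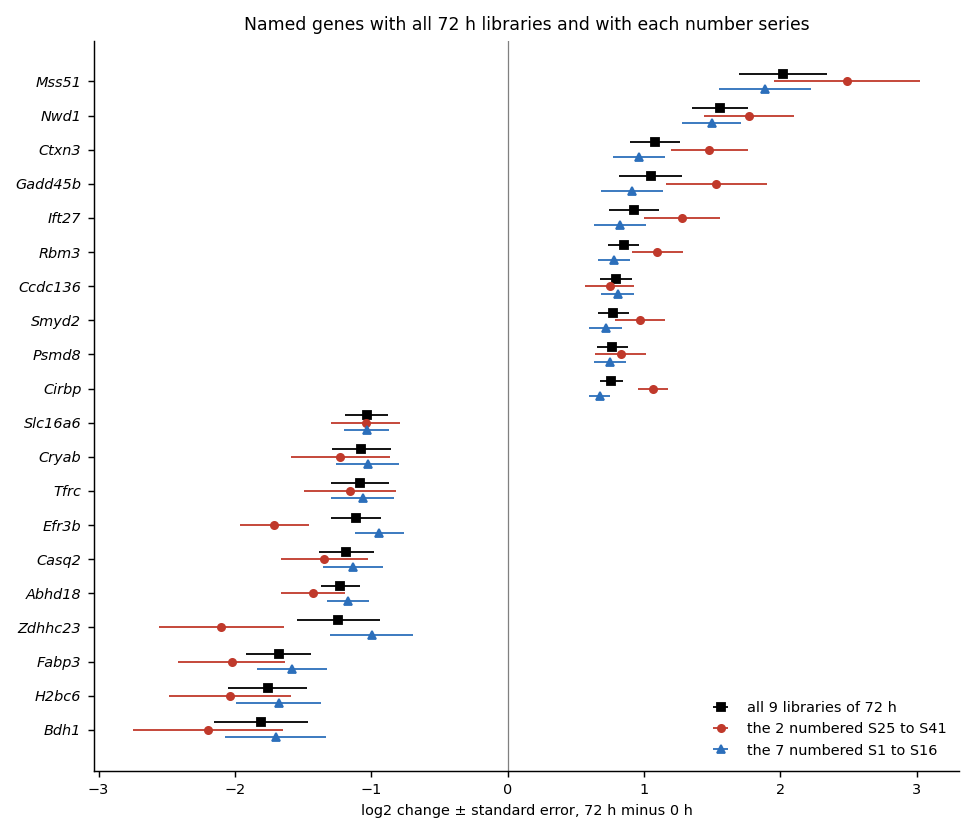
Log2 change at 72 h against 0 h, with its standard error, of 20 genes, the 10 highest and 10 lowest among those with a mean signal of at least 200 called with all 9, with the 2 and with the 7, estimated with all 9 unloaded libraries (black squares), the 2 numbered S25 to S41 (red circles) and the 7 numbered S1 to S16 (blue triangles), each against the 7 controls. The estimates with all 9 run from Mss51 at 2.02 to Bdh1 at -1.81. The same side of 0 in both subsets was a condition for picking the 20 genes, so it is not a result.

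Few matrix genes were called. Of 44 measured 3 were lower, near the 5.22% of all genes, and none higher, also at an unadjusted p, with 5 lower in the 2 alone and with the series term and 1 in the 7 alone. P4ha1, a subunit of the enzyme that hydroxylates proline in collagen, had between 1299.8 and 1721 (median 1428) at 0 h and between 907 and 1204 (median 1057) at 72 h, without overlap, and fell by 0.52 ± 0.068 (adjusted p = 3.8e-06). Serpinh1, the collagen chaperone, fell by 0.48 ± 0.12 (adjusted p = 0.0074), and P4ha2, a second form of the hydroxylase, by 0.26 ± 0.069 (adjusted p = 0.010). In the 7 alone their adjusted p was 0.056 and 0.073. Col1a1, the main collagen of tendon and scar, ranged between 1491 and 7887 (median 5219.6) at 0 h and between 1361 and 8431 (median 2935) at 72 h, and its change was -0.58 ± 0.40 (adjusted p = 0.40). The lower count was 5 without replicate 7 at 0 h or replicate 9 at 72 h.

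Growth, stress and cell cycle genes gave a few calls each. Eif4ebp1, which holds back translation, had between 517 and 779.7 (median 617) at 0 h and between 784 and 1546 (median 1081) at 72 h, apart from the controls, and rose by 0.85 ± 0.19 (adjusted p = 0.0026), with an adjusted p of 0.054 in the 2 alone. Phlda3, a p53 target that blocks Akt, rose by 0.54 ± 0.10 (adjusted p = 0.00034), with between 2263 and 3142 (median 2461) at 0 h and between 3019 and 4742 (median 3711) at 72 h. Cdkn1a, the p53 target p21, changed by 0.45 ± 0.26 (adjusted p = 0.30) and Eda2r, a receptor of the ectodysplasin family, by 0.85 ± 0.31 (adjusted p = 0.065). Eda2r passed without 0 h replicate 7 (0.037) or 72 h replicate 6 (0.017), with array weights (0.031) or only the groups compared (0.044). The authors' deposited table also calls it higher (adjusted p = 0.026). Of 18 measured cell cycle genes 5 were lower, against 5.22% of all genes, and none higher, also at an unadjusted p. The lower count was 3 in either subset. It was 3 without replicate 2, 5, 6 or 7 at 0 h or 1, 4, 8 or 9 at 72 h. Ccnd1, cyclin D1, fell by 1.07 ± 0.19 (adjusted p = 0.00014) and Aurka, a mitotic kinase, by 0.91 ± 0.18 (adjusted p = 0.00063), the latter without overlap.

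Glucocorticoid, clock and amino acid genes gave few calls. Of 21 glucocorticoid targets 19 had a positive estimate, and the median of the list was 0.48. Only 2 were called higher, against 5.61% of all genes, with 5 in the 2 alone, 1 in the 7 alone and 5 with the series term. None was lower, also at an unadjusted p under 0.05, where 8 were higher. The authors' deposited table calls 6 higher. Tsc22d3, which the steroid induces, rose by 0.51 ± 0.14 (adjusted p = 0.012), with an adjusted p of 0.052 in the 2 alone, and Fkbp5 was not called at 0.58 ± 0.21 (adjusted p = 0.061). Fkbp5 passed without 0 h replicate 2 (0.038) or 72 h replicate 4 (0.032) or 5 (0.043), and with array weights (0.0086), only the groups compared (0.040) or library-total scaling (0.047). The count was 1 without replicate 5 or 7 at 0 h or replicate 1, 2, 7 or 8 at 72 h and 4 without replicate 3 or 4 at 72 h. Of 20 clock genes 2 were higher, 1 in the 2 alone and 2 in the 7 alone, where 5.61% of all genes were higher. Cry2, a repressor of the clock, rose by 0.55 ± 0.14 (adjusted p = 0.0096), with an adjusted p of 0.10 in the 2 alone. Of 23 amino acid genes 3 were higher (Gpt2, Bckdha and Bckdk) and 2 lower (Dbt and Pycr1), against 5.61% and 5.22% of all genes. Their median was 0.048, with 1 higher and 0 lower in the 2 alone and 3 and 0 in the 7 alone. The higher count was 1 without replicate 2 or 4 at 0 h or 8 at 72 h, and the lower count was 0 without 0 h replicate 2 and 1 without replicate 3 or 5 at 0 h or 1, 3 or 8 at 72 h. Gpt2, which makes alanine from pyruvate, rose by 0.56 ± 0.11 (adjusted p = 0.00047), with between 8102 and 14664 (median 12782) at 0 h and between 14876 and 24405 (median 17031) at 72 h and no overlap.

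Interferon-induced genes had lower estimates throughout. Of 29 measured all 29 were negative, with a median of -0.43, and 5 were called lower, against 5.22% of all genes. The count was 2 without control replicate 2 and 2 with the 7 alone. With the 2 alone and with the series term limma called none, where 6 and 7 passed an unadjusted p under 0.05, and the authors' deposited table calls 8 lower with all 9. Ifi44, induced by type I interferon, had between 42.2 and 196 (median 63.5) at 0 h and between 22.9 and 42.3 (median 30.2) at 72 h, the highest in control replicate 2, and fell by 1.12 ± 0.29 (adjusted p = 0.0087). With the 2 and the 7 alone its adjusted p was 0.22 and 0.023.

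Markers of other cells in the tissue gave few calls. Of 10 macrophage markers none was called by limma, none at an unadjusted p under 0.05, and their signal summed to between 3440.2 and 8669 at 0 h and between 3755.5 and 6794 at 72 h. Red cell markers, 5 of 7 measured with none called, summed to between 25795 and 63141 and between 17880 and 74070.0. Of 10 endothelial markers 1 was higher and 1 lower, where 5.61% and 5.22% of all genes were. Cldn5, which seals the junctions of vessel walls, rose by 0.80 ± 0.21 (adjusted p = 0.011), with an adjusted p of 0.17 in the 2 alone, and Emcn, a surface protein of veins and capillaries, fell by 0.43 ± 0.10 (adjusted p = 0.0045). Of 6 satellite cell markers 1 was higher, against 5.61% of all genes, and 3 had a negative estimate. None was called lower (2 at an unadjusted p under 0.05, 1 in the authors' deposited table). The higher one, Cdh15, a cadherin of muscle stem cells, rose by 0.49 ± 0.11 (adjusted p = 0.0042). Of 9 smooth muscle markers 1 was higher and none lower (3 at an unadjusted p under 0.05). In that list 7 had a negative estimate, with a median of -0.18. The higher one, Des, desmin, which fibres also make, rose by 0.29 ± 0.082 (adjusted p = 0.019), with an adjusted p of 0.059 without 0 h replicate 2. Of 10 fibroadipogenic, 9 tenocyte and 5 Schwann cell markers limma called none, with 2, 0 and 0 at an unadjusted p under 0.05. Lymphocyte markers were represented by Cd3e alone and neutrophil markers by none of 8.

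A direct comparison with 48 h asked which genes moved between those times. It found 1132 genes (8.81% of all), 443 higher (3.45%) and 689 lower (5.36%) at 72 h than at 48 h, with 423 and 645 with the 7 alone, whose numbers fall in the S1 to S16 range of the 48 h libraries but repeat theirs or those of 24 h. Among the 48 h libraries only replicate 5, numbered S1, repeats a 24 h number. A shared range need not be a shared series, and such a difference cannot be told apart from time. With the 2 other 72 h libraries limma called none and 1003 passed an unadjusted p under 0.05. Scaling to the library total turned the balance to 606 higher and 322 lower, 65.3% higher against 39.1%, while it moved the median of all genes from -0.0041 to 0.0357. The total count of 1132 was 744, 515 and 659 without replicates 1, 2 and 6 at 48 h and 546 without replicate 6 at 72 h.

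Some ubiquitin ligases and FoxO-linked genes were lower at 72 h than at 48 h. Of 25 measured 7 were lower, where 5.36% of all genes were, and 1 higher (4 at an unadjusted p under 0.05), with a median of -0.18 and 5 lower and 1 higher in the 7 alone. The lower count was 4 without replicate 2, 4 or 6 at 48 h or 3, 5 or 6 at 72 h, without trended moderation, and with quantile or library-total scaling, which called 2 and 3 higher. The higher count was 0 without replicate 2 or 6 at 48 h or 6 at 72 h, 3 without 48 h replicate 5 and 2 without 72 h replicate 1. Fbxo32 lay between 20801 and 78697 (median 36016) at 48 h, between 5204 and 17514 (median 13049) at 72 h and between 10544 and 103212 (median 16676) at 168 h. No 72 h library reached the 48 h range, and the gene fell by 1.75 ± 0.30 (adjusted p = 0.0011). Trim63 fell by 1.30 ± 0.27 (adjusted p = 0.0031). Klf10, an early response gene of the TGF-beta pathway, fell by 1.37 ± 0.23 (adjusted p = 0.0011) and Depp1, a FoxO target that alters autophagy, by 1.56 ± 0.41 (adjusted p = 0.015). Pdk4, which blocks the entry of pyruvate into the citrate cycle, fell by 1.81 ± 0.46 (adjusted p = 0.012), with between 6569.9 and 43507 (median 16755) at 48 h and between 1455 and 16328 (median 5617) at 72 h. Eda2r fell by 1.33 ± 0.29 (adjusted p = 0.0040).

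Some proteasome genes were also lower at 72 h than at 48 h. Of the 39 measured 15 were lower, against 5.36% of all genes, and none higher (1 at an unadjusted p under 0.05). The 7 alone gave 13 lower, and the median difference was -0.22. The 15 became 8, 7 and 8 without replicates 1, 2 and 6 at 48 h, 7 without replicate 6 at 72 h, 4 with only the groups compared and with array weights, and 7 with 1 higher when scaled to the library total. Psmc2, an ATPase of the ring, fell by 0.40 ± 0.086 (adjusted p = 0.0041). Of 34 fat oxidation genes 19 were lower than at 48 h, against 5.36% of all genes, and none higher (1 at an unadjusted p under 0.05). There were 13 lower in the 7 alone and 11 without replicate 2 at 48 h or 6 at 72 h. Their median difference was -0.35. Acot1, which releases free fatty acids from their activated form, fell by 1.71 ± 0.34 (adjusted p = 0.0025). Fabp3 fell by 1.11 ± 0.22 (adjusted p = 0.0028), and Etfdh, which passes electrons from fat oxidation to the respiratory chain, by 0.45 ± 0.098 (adjusted p = 0.0040).

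Some ribosome-building and antioxidant genes were lower too, but most were not called. Of 34 genes of ribosome biogenesis 10 were lower than at 48 h, where 5.36% of all genes were, and none higher, also at an unadjusted p (11 lower in the 7 alone). Npm1, a nucleolar chaperone, fell by 0.45 ± 0.087 (adjusted p = 0.0018). Of 33 antioxidant genes 8 were lower, against 5.36% of all genes, and none higher (1 at an unadjusted p under 0.05). There were 7 lower in the 7 alone and 5 with only the groups compared. Gclm, a subunit of the enzyme that makes glutathione, fell by 0.76 ± 0.16 (adjusted p = 0.0040).

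Other genes were higher at 72 h than at 48 h. Tfrc, called below its controls at 72 h, had between 872 and 3152 (median 1863) at 48 h and between 2581 and 6601 (median 3757) at 72 h and rose by 0.97 ± 0.20 (adjusted p = 0.0030). Mrtfa, the actin-sensing partner of SRF, rose by 1.37 ± 0.25 (adjusted p = 0.0011), Kcng4, a potassium channel subunit, by 1.32 ± 0.28 (adjusted p = 0.0036), and Gdap1, a mitochondrial fission protein, by 1.16 ± 0.26 (adjusted p = 0.0048). Nmrk2, a muscle kinase that makes NAD from nicotinamide riboside, rose by 1.64 ± 0.45 (adjusted p = 0.019), from 1353 to 4702 at the median, and without 48 h replicate 2 its adjusted p was 0.053. Of 24 calcium-handling genes 6 were higher, against 3.45% of all genes, and none lower, also at an unadjusted p, with 5 higher in the 7 alone. The 6 became 3, 2 and 3 without replicates 1, 2 and 6 at 48 h, 1 without replicate 6 at 72 h and 3 with only the groups compared. Camk2a, a calcium-dependent kinase, rose by 0.62 ± 0.12 (adjusted p = 0.0017).

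**Figure D4:**
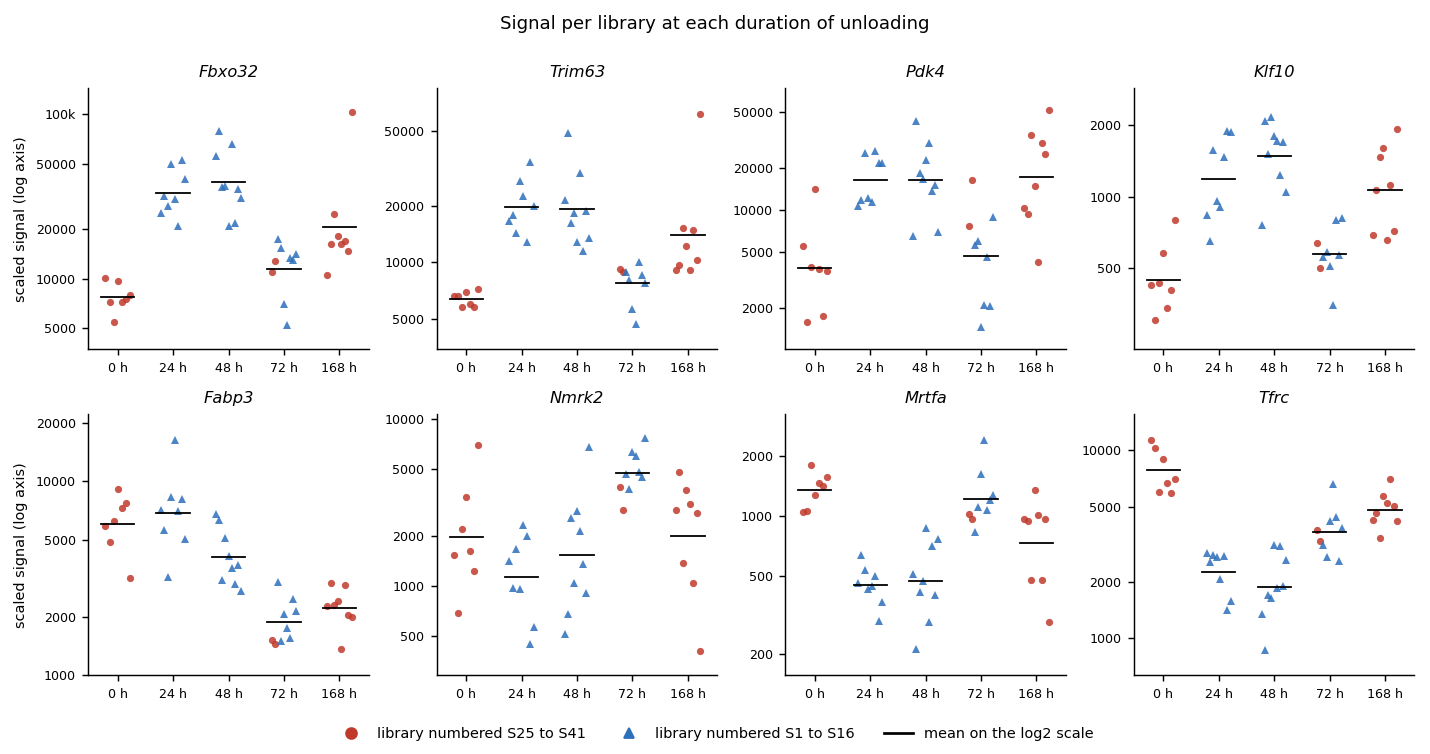
Deposited signal of 8 genes in each male library at 0, 24, 48, 72 and 168 h, on log axes; circles are libraries numbered S25 to S41, triangles those numbered S1 to S16, and bars are means on the log2 scale. Fbxo32 stands between 20801 and 78697 at 48 h and between 5204 and 17514 at 72 h, with 1 library at 168 h as high as 103212, while Fabp3 falls from a median of 3702 at 48 h to 1741 at 72 h.

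Few genes differed between 72 h and 168 h. By limma 16 (0.124%) were higher and 22 (0.171%) lower at 168 h, and 1937 passed an unadjusted p under 0.05. All 168 h libraries carry the controls' number series and most 72 h libraries do not. With the 2 libraries of the shared series limma called none, with 395 at an unadjusted p under 0.05. The 38 calls were 124, 59 and 58 without replicate 4 or 2 at 168 h or 2 at 72 h. They were 14, 3, 9, 14, 6 and 2 without replicates 3, 4, 5, 6, 8 and 9 at 72 h. They were 19, 18, 1, 2 and 0 without replicates 3, 5, 6, 7 and 8 at 168 h, the last with 1573 at an unadjusted p under 0.05. Scaling to the library total gave 13 higher and 72 lower, 15.3% higher against 42.1%. Fbxo32 was not called between the 2 times, at 0.85 ± 0.31 (adjusted p = 0.19), nor was Psmd8, at 0.022 ± 0.11 (adjusted p = 0.94), nor Fabp3, at 0.24 ± 0.23 (adjusted p = 0.64).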

How the data were processed

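RNA sequencing of gastrocnemius was deposited by sex, and the male values of 41 libraries and 12853 genes were used here. Per the labels' protocols, frozen muscle was extracted with TRIzol and a column kit and made into Illumina libraries. The submitters' processing notes name mm10 and mm39 as builds, and Partek, DESeq2 and STAR 2.7.8a as tools. Which step used which, and whether strand was counted, is not given in the sources used here.

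The deposited expression values are a signal: estimated reads per gene that the authors divided by 1 size factor per library. In the 16 libraries 54.1 to 59.7% of values with a signal of 2 to 120 were whole reads within 0.03 of a read, where chance gives 6%, so counts were not recovered and no count model was run, although the plan was to test counts. Every gene of the table reaches about 100 in some library, so lower genes were not analysed here. The authors' deposited DESeq2 sheet also gives, for 72 h against 0 h, a ratio (fold) and a p-value adjusted by FDR, with no number for 9 genes.

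limma 3.58.1 in R 4.3.3, with version 1.17.8 of its data.table package, was run on log2 of the signal plus a pseudocount of 1, in 1 model of the 5 male groups with trended, robust moderation. Tests were two-sided, with p-values of the 12853 genes adjusted together after Benjamini and Hochberg and called at an adjusted p under 0.05. On data simulated from these libraries it recovered 70.1, 94.0 and 98.5% of genes changed by 0.5, 1 and 2 on the log2 scale, with 3 false calls of 178. The simulated noise was normal and independent between genes, with no outlying library and no effect of the number series. It therefore cannot show how often those give false calls. Alternatives were another pseudocount, a filter on the mean, other scalings, the groups compared only, array weights, no moderation trend, a term for the number series, either subset of 72 h libraries, and each library left out. The closest pair of libraries in a group differed by an SD of 0.314 on the log2 scale, so none was taken as a duplicate. Python 3.11.15, numpy 2.4.6, pandas 2.3.3 and matplotlib 3.10.9 did the rest.

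Members, lists and tests were chosen with earlier results of these data known. Named genes are the 10 highest and 10 lowest changes among called genes with a mean signal of at least 200 that were also called with either subset, the 3 called members of each of 34 pathway lists with the smallest p, and 24 fixed genes. For other times they are the 5 highest and 5 lowest called also with only the 72 h libraries in the same range of S numbers, and other list members may be named. Some of these genes are not reported here. No gene met that rule between 72 h and 168 h. Gene positions are those of the deposited table, where 98.3% of genes match the length but only 2.49% the start in an mm10 annotation, and promoter sequences are RefSeq's on GRCm38.p6. Female libraries were not analysed here.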

Additional observations from a re-analysis of the deposited data

Results flagged for a closer look

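Single libraries stood far from their group, by the gap to the nearest library over the group's range, in 17 of 234 groups tested, where chance flags about 1 in 20. Control replicate 2 was high for Actc1 (71553) and Ifi44 (196), and control replicate 7 was low for Ppargc1a (1208) and Psme1 (592). Replicate 1 at 72 h was low for Cycs (2958) and Dlst (6051) and high for Psmd2 (12729). Replicate 3 was high for Grb10 (2051). Replicate 4, whose whole profile stood apart, was low for Atf3 (45.8) and Hrc (17082) and high for Map1lc3b (9237). Replicate 6 was low for Eda2r (738) and Foxo3 (740.5) and high for Gdap1 (1668) and H2bc6 (398), replicate 8 was high for Myh1 (293855) and replicate 9 for Col1a1 (8431).

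The change at 72 h differed from that at 48 h, by the direct test of 72 h against 48 h, in 18 of the genes picked by the naming rule. That test called 8.81% of all genes. Some of the 18, such as Nmrk2 and Pdk4, were picked as its furthest changes, so the count is partly built in. List members named in addition, such as Psmc2, are not among the 18. On the log2 scale 72 h minus 48 h was -1.75 for Fbxo32, -1.30 for Trim63, -0.39 for Foxo3, -1.56 for Depp1, -1.81 for Pdk4 and -1.37 for Klf10. It was -0.98 for Cdkn1a, -1.33 for Eda2r, -0.63 for Fkbp5, -0.68 for Eif4ebp1, -0.49 for Txnip, -0.51 for Hspa8 and -1.11 for Fabp3. It was 0.97 for Tfrc, 1.37 for Mrtfa, 1.32 for Kcng4, 1.16 for Gdap1 and 1.64 for Nmrk2.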

How the results depend on the processing

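The 1392 genes called at 72 h against 0 h became 2103 with array weights, 552 with a term for the number series, 516 with the 2 libraries alone and 816 with the 7 alone, and 993 to 1472 when a library was left out. The count was within 1.5 times of 1392 under every other setting run. Against 48 h the 1132 became 563 when only the groups compared were fitted and 0 with the 2 alone (1003 at an unadjusted p under 0.05), and 515 to 1357 with a library left out. The 38 between 72 h and 168 h became 85 when scaled to the library total, 11 with only the groups compared, 630.0 with array weights, 0 with the series term (382 at an unadjusted p under 0.05), 0 with the 2 alone (395), 80.0 with the 7 alone and 0 to 124 with a library left out. Of 126 changes of named genes, 38 lost their call with the series term, 51 with the 2 alone and 16 with the 7 alone, and 19 lost it when some library was left out. Some of the 126 were not called at first and had no call to lose. Others were picked for being called in a subset and could not lose it there. These counts are therefore not rates of loss. Against 0 h and 168 h the series term gave each gene the same change as the 2 alone. They are not separate checks. A pseudocount of 10 altered the call of none of the 126. Changes that turned sign were all of genes not called. Foxo1 was -0.0737 with the 7 alone and -0.0387 to 0.0659 with a library left out. Mstn was 0.0072 with array weights, 0.11 with the series term, 0.11 with the 2 alone and -0.12 to 0.0381 with a library left out. Myh4 was 0.0316 under quantile normalization and Pdk4 -0.0637 with the 7 alone. The cause of these shifts was not tested. Fitting 2 or 7 libraries in place of 9 also lowers the number of samples. No paired analysis was possible because replicates were numbered here in record order, and a number ties no library to another. Depth is an estimate, and genes that stay under about 100 units could not be seen.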

Other observations

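The following genes were picked after their values were seen. H1f4, a linker histone that packs chromatin, had a signal between 154 and 298 (median 202) at 0 h and between 32.6 and 118 (median 57.8) at 72 h, with no overlap. It fell by 1.85 ± 0.28 (adjusted p = 2.2e-05), and was called with the 2 libraries of the controls' number series alone (adjusted p = 0.0074) and the 7 alone. H1f2, another linker histone, lay between 3444 and 7747 (median 4869) before and between 2632 and 3593 (median 3096) after and fell by 0.68 ± 0.13 (adjusted p = 0.00056), with an adjusted p of 0.068 in the 2 alone. The span of H1f4 overlaps that of H2bc6, and reads of the 2 may not be told apart. H2az1 was called lower at -0.29 ± 0.096 (adjusted p = 0.046), a call lost without any 1 of replicates 1, 2, 5, 6 and 7 at 0 h and 1, 2, 4, 8 and 9 at 72 h, while H1f0, H2aw, H2bc21, H2bc4, H3f3a and H3f3b were not called. Eif3b, a subunit of the complex that starts translation, lay between 2565 and 2934 (median 2736) before and between 3323 and 3913 (median 3549.5) after, again apart, and rose by 0.38 ± 0.051 (adjusted p = 4.2e-06). Eef2, the factor that moves the ribosome along a message, rose by 0.48 ± 0.076 (adjusted p = 4.1e-05), with between 33192 and 46065 (median 37158) at 0 h and between 41778 and 64330.0 (median 50794) at 72 h. Both translation factors were called with either subset.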
